A study of Mus musculus with 3 samples.

Results

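The miRNAs described here carry the names miR-297, miR-466, miR-467 and miR-669, with any letter or arm that follows the number. In mouse most of them derive from 1 long row of hairpins inside an intron of Sfmbt2, a gene for a Polycomb group protein. The libraries list 80 such names among 1915 mature miRNAs, namely 6 of miR-297, 31 of miR-466, 13 of miR-467 and 30 of miR-669. They were taken by name alone, with no cut on a measured value. Earlier results of these data were known, however, when the name families were chosen. Retinas of C57BL/6 mice were taken, with no treatment named in the labels, on postnatal days 1, 7 and 17 (P1, P7, P17), and the retinas of 5 eyes were pooled into a single library at each age. With no replicate library, the spread within an age is unknown and no p-value can be given. All intervals below are 95% intervals and cover only the error of counting reads, not the spread between libraries. Reads copied by PCR are not independent molecules, and the study names no molecular identifiers, so even that error may be larger than the intervals show.

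A miRNA is cut from a hairpin precursor as a 5p and a 3p strand, and one of them usually guides Argonaute proteins to messenger RNAs that pair with its seed, bases 2 to 8. Sfmbt2 is an imprinted gene, expressed from the paternal copy in early embryos and placenta, and its intronic miRNAs are known as a rodent expansion that is abundant in trophoblast and embryonic stem cells. The hairpins are repeated copies of each other, and mature strands of different names can be alike or the same.

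In GRCm38, the assembly that mm10 names, Sfmbt2 (ENSMUSG00000061186) lies on the plus strand at chr2:10370510-10595253. The annotation (GENCODE M21) holds 81 hairpin genes of the 4 name families, of which 71 are inside Sfmbt2, all on its strand and none over an exon. They occupy chr2:10466663-10518279, a stretch of 51617 bp within the intron that runs from 10461473 to 10523944, between exons 11 and 12 of the transcript Sfmbt2-205. The same intron is number 10 of the transcript Sfmbt2-201. The families alternate along it, with 29 hairpins of miR-669, 23 of miR-466, 14 of miR-467 and 5 of miR-297. Several names have many copies there, among them 12 of Mir669a, 10 of Mir467a and 8 of Mir466b. By their hairpin genes, 66 of the 80 names belong to this intron alone, 5 (the miR-297a and miR-466f names) to the intron and 1 other site, and 9 to other chromosomes. MiR-466a was matched here to the hairpin gene annotated as Mir466. The label "Sfmbt2 cluster" therefore holds for most of the names but not for all of them.

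**Figure D1:**
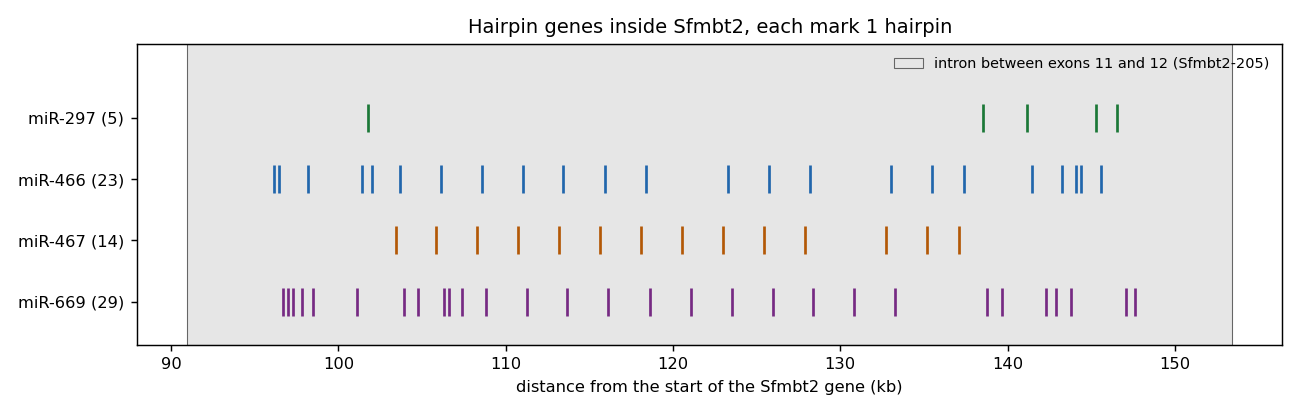
Each mark is 1 of the 71 hairpin genes inside Sfmbt2, placed by its distance in kb from the start of the gene, with 1 row per name family and the number of hairpins in brackets. The grey band is the intron between exons 11 and 12 of Sfmbt2-205, and the miR-466, miR-467 and miR-669 hairpins recur side by side along its middle.

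Of the 10 hairpins elsewhere, Mir466i lies on chromosome 13 (17747473 to 17747593) in an intron of Cdk13, on the opposite strand. Mir466q lies in an intron of Tnik on the same strand, and Mir466k, Mir467f, Mir467g and Mir669n lie in introns of other protein-coding genes on the opposite strand. Mir466j, Mir466f-4, Mir297-1 and Mir467h overlap no other annotated gene.

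Mature sequences were found in the RefSeq table (GRCm38.p6) for 8 of the 80 names, all of them from sites outside Sfmbt2. They are shown because the dinucleotide repeats in these 8 are visible in the letters. The sequences of the other names were not examined. Each is written 5′ to 3′ with the seed in capitals.
miR-466i-3p: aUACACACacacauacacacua
miR-466j: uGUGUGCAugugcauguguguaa
miR-466k: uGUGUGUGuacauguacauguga
miR-466q: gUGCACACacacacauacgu
miR-467f: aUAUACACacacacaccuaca
miR-467g: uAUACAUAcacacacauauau
miR-467h: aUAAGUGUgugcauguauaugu
miR-669n: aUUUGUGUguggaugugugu

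The first of them lies at chr13:17747552-17747573 on the plus strand and the second at chr10:60960802-60960824 on the plus strand. MiR-466k lies at chr3:85467396-85467418 and miR-466q at chr3:28419988-28420007, both on the plus strand. MiR-467f lies at chr11:69635419-69635439 and miR-467g at chr5:34732872-34732892, both on the minus strand, whereas miR-467h, at chr9:115381898-115381919, and miR-669n, at chr3:115979905-115979924, are on the plus strand. No pair of these 8 shares a seed, although the names follow the family numbers. Of all mature miRNAs in the table, only miR-668-5p shares a seed with one of them, namely that of miR-467h. The table lacks the other names of the 4 families, so a seed shared with one of those could not be seen. MiR-466j, miR-466k, miR-467h and miR-669n contain UGUGUG, and the other 4 contain CACACA, its reverse complement. Of the 1679 mature sequences in the table, a share of 2.38% holds one or the other, and none holds both. Purines and pyrimidines alternated over 16 to 22 bases in a row in 7 of the 8, and over 8 in miR-669n, against a median of 4 among all of them. Where in the genome a read of such a repeat came from was not tested, and hairpin positions below are those annotated for the name.

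Depth was similar, with 11426320 (P1), 12759995 (P7) and 11659722 (P17) miRNA reads, so that 1 read is worth 0.0784 to 0.0875 RPM (miRNA reads scaled to the library total). The retinal character of the libraries was checked with marker miRNAs. MiR-183-5p, miR-182-5p and miR-96-5p, found in photoreceptors, summed to 77854, 304394 and 301141 RPM in order of age, and all of them were present at every age. The 3 neuronal miRNAs (miR-124-3p, miR-9-5p and miR-128-3p) summed to 155178, 131951 and 90848 RPM in order of age. Most of this was miR-9-5p, with 144259 RPM at P1 and 74010.5 RPM at P17. MiR-128-3p was also lower at P17 than at P1 (9375 and 4060 RPM), whereas miR-124-3p was higher (1544 and 12777 RPM). Markers of other cells in or near the retina were present too. The endothelial pair (the miR-126a arms) summed to 1261, 3643 and 8530 RPM, and the pair of pigment epithelium and Müller glia (miR-204-5p and miR-211-5p) to between 7226 and 15211 RPM. From P1 to P17 miR-204-5p went from 14661.5 to 9019 RPM and miR-211-5p the other way, from 549.7 to 5315 RPM. The 3 names of lens and surface epithelium gave 269.3 to 645.3 RPM, the 5 of blood and leukocytes 28.8 to 59.7 RPM, and miR-206-3p of skeletal muscle 15.8 to 22.7 RPM. The lens and blood names did not move together either. From P1 to P17 miR-184-3p was higher (100.7 and 568.9 RPM) and miR-203-3p (252.8 and 75.7 RPM) and miR-205-5p lower. Of the blood names miR-451a was lower (45.5 and 27.9 RPM) and the rest higher. The part of these cells in the results was not tested. Of the miR-290 and miR-302 names listed as markers of pluripotent cells, 8 in number, 4 had no read at P1, 6 had none at P7 and 7 had none at P17. Summed, they had 40, 5 and 1 reads in order of age, thus lower with age as were the miRNAs of the Sfmbt2 intron, and the part of such cells was not tested either. In pooled tissue fewer cells of a type and less RNA per cell cannot be told apart.

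Many names did not vary independently. Of the 80 names, 63 had reads in every library, and only these were searched for equal counts. Among them 22 fell into 10 groups whose counts were equal at all 3 ages, and 20 of those names passed a filter on abundance (mean RPM of 1 or more). MiR-669a-5p and miR-669p-5p each had 5031, 1272 and 555 reads in order of age. MiR-466a-3p and miR-466e-3p each had 1647, 385 and 199 reads, and miR-466b-3p, miR-466c-3p and miR-466p-3p each had 1643, 385 and 199. The last 3 thus differed from the first pair by 4 reads in 1 library. MiR-297a-3p, miR-297b-3p and miR-297c-3p had 384, 153 and 96 reads each. MiR-669a-3p equalled miR-669o-3p (900, 320 and 284 reads), miR-466b-5p equalled miR-466o-5p (656, 194 and 78), and miR-467a-3p equalled miR-467d-3p (402, 130 and 52). The equality crossed family numbers once among the names past the filter, in miR-466m-5p and miR-669m-5p, which both had 139, 38 and 20 reads. MiR-466d-5p and miR-466n-5p both had 122, 52 and 22. MiR-467a-5p and miR-467b-5p were nearly equal, with 9936 and 9934 reads at P1 and 3906 and 2126 for both at P7 and P17. The pair miR-466q and miR-669n, below the filter, had 8, 4 and 3 reads each although the sequences printed above differ. The counting rule for reads that match several names is not given in the sources used here, so a sum over names may count a read more than once. Past the filter there were 48 names with 37 distinct series of counts, or 35 when counts within 0.5% of each other at every age were merged.

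Summed over all names, 55646, 17832 and 10003 reads were counted in order of age. At P1 this was 4870 RPM (exact Poisson interval 4830 to 4911), or 0.487% of all miRNA reads. The sum was 1397 RPM (1377 to 1418) in the P7 library and 857.9 RPM (841.2 to 874.9) in the P17 library, or 0.140% and 0.0858%. The level was 3.48-fold lower at P7 than at P1 (exact binomial interval of the ratio 3.43 to 3.54), and a further 1.63-fold lower at P17 (1.59 to 1.67). From P1 to P17 it was 5.68-fold lower (5.56 to 5.80). With nearly equal names counted once the reads were 31110, 10070 and 5875, and the ratio of P1 to P17 was 5.40 (5.25 to 5.56). Merging names thus changed the level more than the ratio between ages. The merged sum at P1 was 2723 RPM (2692 to 2753), outside the interval of the full sum. An interval on summed names is too narrow, even for counting, where a read was counted under several names. This holds for the family sums and shares below as well. The differences between ages exceeded the counting error, but libraries and ages cannot be told apart.

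The RPM scale also moved for miRNAs in general. On the log2(RPM + 1) scale the median change of all 648 miRNAs past the filter was -0.87 from P1 to P7, -0.05 from P7 to P17 and -0.91 from P1 to P17. The median of the 48 names was -1.73, -0.75 and -2.29 over the same intervals. Relative to the median of all miRNAs the median of the 48 names thus differed by -0.86, -0.70 and -1.38. The size factors by the median of ratios were 0.862 at P7 and 0.743 at P17, and above 1 only at P1, so that the P1 library stood apart. These factors, chosen to put the typical miRNA near no change, gave medians for the names of -0.91, -0.68 and -1.45, against -0.04, 0.03 and 0.01 for all miRNAs. On that scaling the summed change from P1 to P17 was -1.46, against -2.50 with RPM. The direction was the same and the size was not.

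Counted as over 2-fold on the log2(RPM + 1) scale, all 48 names past the filter were lower at P7 than at P1, where 44.8% of all miRNAs were lower and 3.09% higher. With median-of-ratios size factors 18 names (37.5%) were over 2-fold lower, where 11.0% of all miRNAs were. From P7 to P17 only 9 names (18.8%) were over 2-fold lower and none was over 2-fold higher, beside 11.6% lower and 14.0% higher among all miRNAs. Median-of-ratios factors left 5 (10.4%) beside 10.6%, which is near the background. Other settings gave more, with 27 names (56.3%) beside 23.0% where the most abundant miRNAs were left out of the library total and 18 (37.5%) beside 16.4% with a pseudocount of 0.1 RPM, so the count over the second interval rests on the setting. From P1 to P17 all 48 were over 2-fold lower, beside 46.8% lower and 10.5% higher among all miRNAs, and median-of-ratios factors gave 38 (79.2%) beside 23.9%. The filter uses the mean of the libraries, so a name that is high at P1 alone can pass through that library, and the names are not independent of each other. Without any filter, 71 of the 80 names had a lower RPM value at P17 than at P1, 8 had equal values and 1, miR-467g, had a higher one, on a single read. Of all 1915 names 47.3% had a lower value, with no filter on unread names. A name without reads at P1 cannot be lower at P17. Reads at P1 were found for 1169 of the 1915 names and for 75 of the 80, so these unfiltered shares differ in part by detection.

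**Figure D2:**
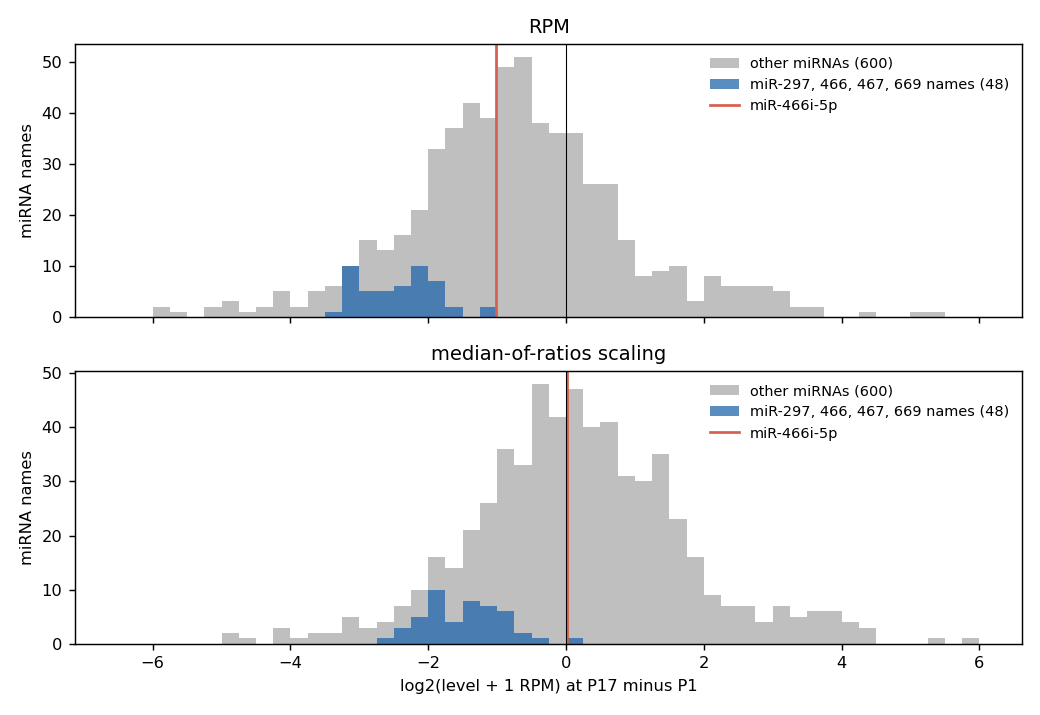
The change from P1 to P17, as the difference of log2(level + 1 RPM), is on the horizontal axis and the number of miRNA names per bin on the vertical axis, for the 48 names (blue) and the 600 other miRNAs past the filter (grey), with RPM above and median-of-ratios scaling below. The names lie in the left part of the distribution under both scalings, with miR-466i-5p (red line) at their right edge, at -1.01 with RPM and 0.02 with median-of-ratios scaling.

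The most abundant strand was miR-467a-5p, from a hairpin with 10 copies in the intron. It had 9936 reads in the P1 library (869.6 RPM), 3906 in P7 (306.1 RPM) and 2126 in P17 (182.3 RPM), and ranked 95, 113 and 150 among all miRNAs. Its level was 2.84-fold lower at P7 than at P1 and 1.68-fold lower at P17 than at P7. The log2 ratio of P17 to P1, without a pseudocount, was -2.25 (exact binomial interval -2.32 to -2.19). Its level was lower at each later age under every scaling run, but which interval held the larger change turned with the scaling. On the log2 scale with 1 added, the changes over the first and second interval were -1.50 and -0.74 with RPM, -0.54 and -0.66 with median-of-ratios factors and -0.52 and -0.68 with TMM factors. The first interval held the larger change for all 48 names with RPM and for 34 with either set of factors. The same count over all miRNAs is not given here. Their median change with RPM was also larger over the first interval, at -0.87 against -0.05. MiR-467c-5p had 1150, 427 and 260 reads and miR-467e-5p had 1031, 417 and 262, close to a constant fraction of miR-467a-5p. For every 100 reads of miR-467a-5p there were 11.6, 10.9 and 12.2 reads of miR-467c-5p at P1, P7 and P17, and the exact intervals of the 3 values overlapped. Such a ratio does not depend on the library total. The whole miR-467 family was 4.77-fold lower at P17 than at P1 (4.63 to 4.92).

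The miR-669 family was lower by more than miR-467. Its sum was 1605, 392.3 and 231.2 RPM in order of age, a ratio of P1 to P17 of 6.94 (6.67 to 7.23) that lay outside the interval of the miR-467 family. MiR-669a-5p, with which miR-669p-5p shares its counts, had 440.3, 99.7 and 47.6 RPM in order of age. Its log2 ratio of P17 to P1 was -3.21 (-3.34 to -3.08). For every 100 reads of miR-467a-5p the P1 library had 50.6 reads of miR-669p-5p (48.9 to 52.4), the P7 library 32.6 (30.5 to 34.7) and the P17 library 26.1 (23.7 to 28.7), so these neighbours in the intron did not keep a constant ratio. MiR-669c-5p, a single-copy hairpin of the intron, had 3569, 1000 and 595 reads, or 35.9, 25.6 and 28.0 for every 100 reads of miR-467a-5p. It lay below miR-669p-5p at P1 and above it at P17, where the intervals of both values overlapped. MiR-669b-5p had 592, 130 and 64 reads in order of age, and its change from P1 to P7, -2.24 on the log2(RPM + 1) scale, was among the 3 largest. The miR-297 family was the scarcest, with 120.5, 41.1 and 27.4 RPM in order of age, and its ratio of P1 to P17 was 4.40 (3.90 to 4.99).

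MiR-466 differed within the family, whose sum was 1124, 259.0 and 176.2 RPM. The ratio of P1 to P17 was 6.38 (6.09 to 6.69), or 4.84 (4.54 to 5.16) with nearly equal names counted once. MiR-466a-3p, whose counts the 3p strands of miR-466b, miR-466c, miR-466e and miR-466p share or nearly share, had 144.1, 30.2 and 17.1 RPM in order of age, with a log2 ratio of P17 to P1 of -3.08 (-3.30 to -2.86). MiR-466d-3p, also of the intron, had 19.5, 5.02 and 4.80 RPM, with a smaller log2 ratio of -2.02 (-2.47 to -1.59). The largest change from P1 to P17 on the log2(RPM + 1) scale, -3.48, was that of miR-466p-5p, with 226, 47 and 10 reads in order of age. MiR-466f and miR-466f-5p, 2 names of the same hairpins, had 118, 18 and 4 and 114, 16 and 4 reads, and were among the 3 with the largest change from P1 to P7, at -2.23 and -2.28. Their ratios are imprecise, as the log2 ratio of P17 to P1 of miR-466f lay between -6.81 and -3.52. MiR-466k, whose repeat sequence is printed above, had 93, 20 and 2 reads.

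MiR-466i-5p took a different course after P7. It had 1255 reads in the P1 library (109.8 RPM), 412 in P7 (32.3 RPM) and 629 in P17 (53.9 RPM). It was therefore lowest at P7 and higher again at P17, without reaching the RPM of P1. The log2 ratio of P17 to P7 was 0.74 (0.56 to 0.92), under 2-fold, and it was the only name past the filter whose interval lay above 0. Of the other 47, 34 had an interval below 0 and 13 one that included 0. No such count over all miRNAs is given here, so these numbers cannot be called particular to the names. Relative to miR-467a-5p, miR-466i-5p had 12.6 reads per 100 in the P1 library (11.9 to 13.4), 10.5 in P7 (9.51 to 11.7) and 29.6 in P17 (27.0 to 32.4). Its share of all reads of the 80 names was 2.26% (2.13 to 2.38) in P1, 2.31% in P7 and 6.29% (5.82 to 6.78) in P17. With nearly equal names counted once it was 4.03% (3.82 to 4.26), 4.09% and 10.7% (9.93 to 11.5). These within-library values do not depend on the scaling, although the share depends on how names are merged. Its change from P1 to P17 did, being -1.01 with RPM and 0.02 with either median-of-ratios or TMM factors. The hairpin annotated for it is the one in Cdk13 on chromosome 13, not in Sfmbt2. The other 8 names from outside the intron, summed, had 183, 39 and 17 reads in order of age, so that their sum was not higher at P17. Much of that sum was miR-466k, with 93, 20 and 2 reads. None of the rest had more than 5 reads at P7 or P17, and miR-467h (2 and 3) and miR-467g (0 and 1) had more at P17. These counts are too small to show whether single names shared the higher value. Its own 3p strand, miR-466i-3p, had 40, 4 and 2 reads.

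**Figure D3:**
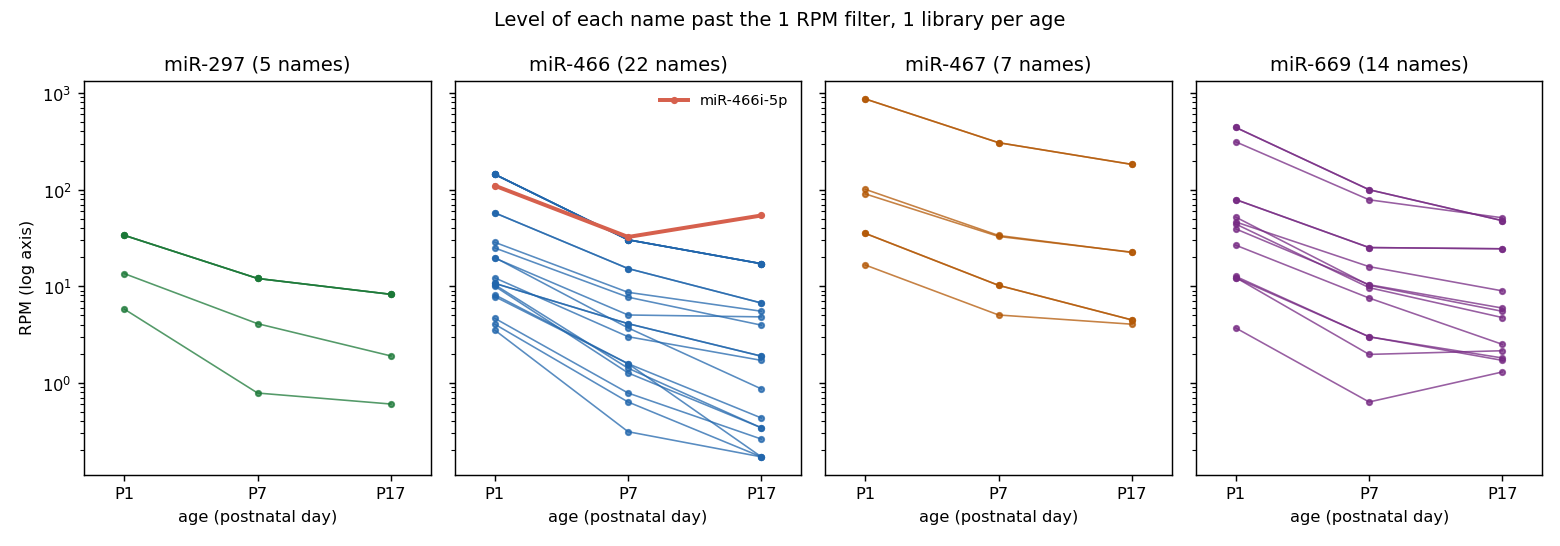
Each line is 1 of the 48 names past the filter, with its RPM on a logarithmic axis at P1, P7 and P17 (1 library each), and 1 panel per name family. Names with equal counts lie on top of each other. All lines go down from P1 to P7, and miR-466i-5p (red) goes up from 32.3 RPM at P7 to 53.9 RPM at P17.

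Within the names past the filter, 45 were lower at P7 than at P1 and lower again at P17. The other 3 had a higher RPM value at P17 than at P7, namely miR-466i-5p, miR-669f-5p (25 reads at both ages) and miR-669p-3p (8 and 15 reads). No such count over all 648 miRNAs past the filter is given here, so the 45 cannot be called particular to these names. With RPM the median change of all miRNAs was -0.87 over the first interval and -0.05 over the second. For miR-669f-5p and miR-669p-3p the interval of the ratio included 0 on the log2 scale. MiR-669p-3p and miR-669o-3p were, with miR-466i-5p, the names with the smallest change from P1 to P17, at -1.03, -1.65 and -1.01. The smallest changes from P1 to P7 were those of miR-466d-5p and miR-466n-5p, -1.20 each, and of the 3 miR-297 3p names with equal counts, -1.41 each.

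The strands of a hairpin were compared by the share of 5p reads among its 5p and 3p reads, which is free of the library total. Both arms were listed, with at least 30 reads between them on average, for 30 hairpin names. At P1 the 5p strand held the majority in 8 of 10 miR-669 hairpins and 4 of 5 miR-467 hairpins, in none of the 3 miR-297 hairpins and in 6 of 12 miR-466 hairpins. MiR-467c, for example, gave 1150 reads of 5p and 8 of 3p at P1, or 99.3% 5p, and miR-669c gave 3569 and 2, or 99.9%. In contrast, miR-466a gave 15 reads of 5p and 1647 of 3p, or 0.903% 5p. The majority strand thus varied among the hairpins, and whether the families differ in it was not tested. The hairpins are not independent, as the 3 miR-297 hairpins share 1 3p count and the 3p counts of miR-466a, miR-466b, miR-466c, miR-466e and miR-466p are the same or nearly so. Equal 5p counts at P1 occur too, among them 5031 in miR-669a and miR-669p and 656 in miR-466b and miR-466o. Those of miR-467a and miR-467b are nearly equal. The numbers of hairpins with a 5p majority may therefore count the same reads more than once.

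From P1 to P17 the 5p share was higher in 12 hairpins, lower in 17 and the same in 1, and the intervals at P1 and P17 were apart in 8. The largest of these 8 differences was that of miR-669a, from 84.8% (83.9 to 85.7) in the P1 library through 79.9% (77.8 to 81.8) in P7 to 66.2% (62.8 to 69.4) in P17. Between P7 and P17 miR-669a-3p had 25.1 and 24.4 RPM, a difference within counting error whose sign turned with median-of-ratios and TMM factors, while miR-669a-5p went from 99.7 to 47.6 RPM. MiR-669o, whose 3p count is the same as that of miR-669a, went from 33.2% at P1 to 19.5% at P17. MiR-467d went the other way, from 32.0% (28.2 to 35.9) to 47.5% (37.3 to 57.8), on 99 reads at P17. In miR-466p the share was 12.1% at P1 and 4.78% at P17, and in miR-466c 16.5% and 24.3%. In miR-467a, miR-466i and miR-669p the intervals were apart although each share differed by under 3 percentage points. As copies of these hairpins share strands, the change cannot be assigned to 1 hairpin.

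**Figure D4:**
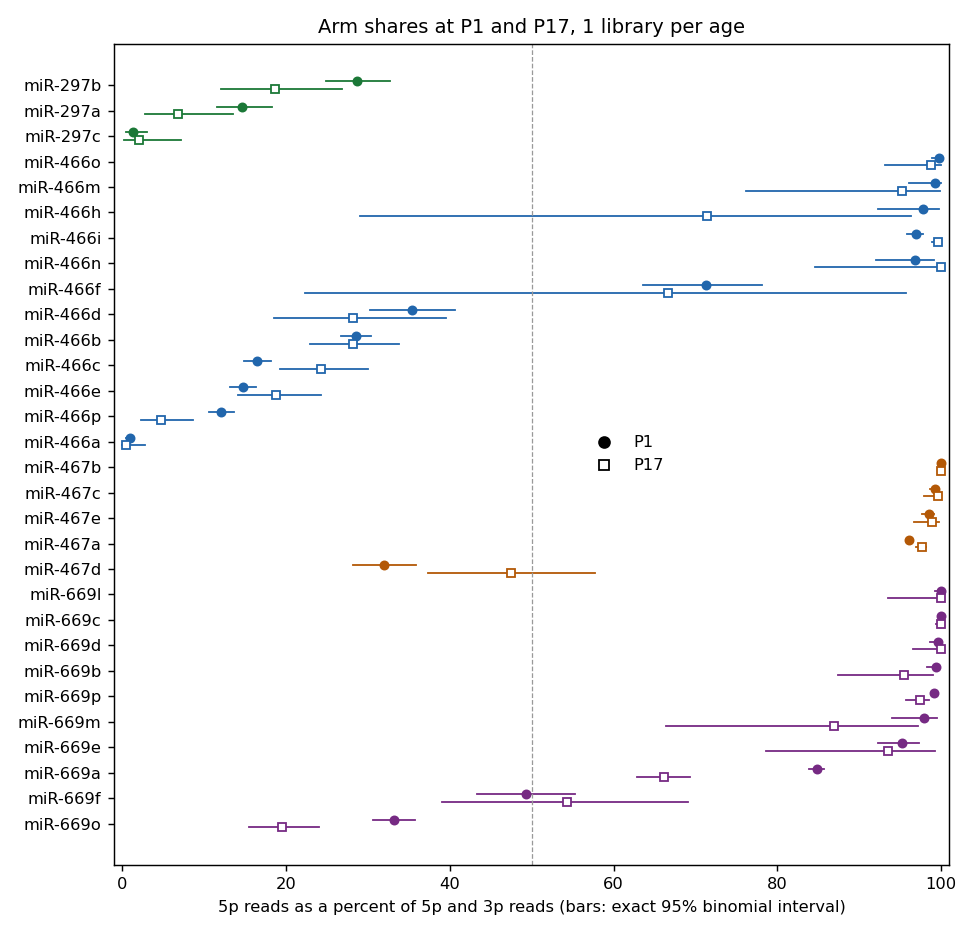
The 5p share of reads, in percent, is given for 30 hairpin names at P1 (filled circles) and P17 (open squares), with exact binomial intervals as bars and the families in different colours. The miR-467 and miR-669 names crowd at the right edge and the miR-297 names at the left, and the squares of miR-669a and miR-669o lie to the left of their circles.

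The 32 names below the filter had at most 23 reads in any library, which miR-466j had at P1. Together they had 178, 72 and 44 reads in order of age. Of these names, 16 never exceeded 3 reads, the floor set for detection (0.235 to 0.263 RPM), and miR-669j and miR-669k-3p had no read at any age, which allows up to that floor. Reads were found for 75 (P1), 69 (P7) and 68 (P17) of the 80 names. For most of the 32 names below the filter no change was detectable at this depth. The counting interval of the RPM ratio lay below 0 on the log2 scale for 5 of the 32 from P1 to P7 and for 6 from P1 to P17, among them miR-466j (23, 5 and 3 reads), and for none from P7 to P17. The same count over other miRNAs below the filter is not given here.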

How the data were processed

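Small RNA libraries of mouse retina, 1 pooled library per age (P1, P7, P17, from the labels), were analysed. According to the study, adaptors and low-quality reads were removed and the rest aligned to mm10 with HISAT2, whereas the submitters' processing notes name FastQC and BWA. The authors deposited a read count for each miRNA name and an RPM value, which equals the count scaled to the total of its library to within 0.0192 RPM. The counting rule for shared reads is not given in the sources used here. Changes were computed as log2(RPM + 1), and as ratios of counts without a pseudocount with exact (Clopper-Pearson) intervals. A mean of at least 1 RPM was the filter and 2-fold the criterion. No model across genes was fitted, for want of replicates.

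Hairpin positions came from GENCODE M21 and sequences from RefSeq (GRCm38.p6). The names printed were the 5 most abundant per library and 1 per family, the 3 largest and 3 smallest changes of P17 and of P7 against P1, and names with equal counts. Others are given as examples chosen after their values were seen. Members and lists were chosen with earlier results of these data known. Alternatives were other scalings (median-of-ratios on 644 miRNAs, TMM from edgeR 4.0.16, a total without 13 abundant miRNAs), pseudocounts, filters, fold criteria and merging of names. The 2-fold call and the intervals were tested on simulated independent counts with known changes. The simulation held no reads shared between names and no spread between libraries, so it cannot speak to those limits. Python 3.11.15, scipy 1.17.1 and R 4.3.3 were used.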

Additional observations from a re-analysis of the deposited data

How the results depend on the processing

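No direction of the summed level or of the median changed under any alternative run, but sizes did, and beyond the construction of each setting the cause was not tested. A count was taken as moved when not within 1.5 times, a sum or share when outside its counting interval and a median when outside the middle 50% of the names. From P1 to P7, median-of-ratios factors gave 18 names over 2-fold lower (11.0% of all miRNAs), a median of -0.91 and a summed change of -0.84, TMM factors 17 (10.6%), -0.89 and -0.81, and the total reduced by the top miRNAs a median of -1.32 and a sum of -1.18, against 48, -1.73 and -1.80. From P7 to P17 the numbers lower were 5 (10.6% of all miRNAs) with median-of-ratios factors and 27 (23.0%) with the reduced total, against 9 (11.6%), the sums -0.62, -0.64 (TMM) and -0.95, against -0.70, and the median -1.05 with the reduced total, against -0.75. From P1 to P17 the medians were -1.45 with either set of factors, against -2.29, and the sums -1.46, -1.46 and -2.13, against -2.50. A pseudocount of 5 RPM gave medians of -1.32, -0.40 and -1.61 and 0 names lower from P7 to P17 (6.79% of all), and 0.1 RPM gave 18 (16.4%). Without a filter the medians were -1.50, -0.48 and -1.91, and with a filter of 10 RPM 29 names of 29 were lower at P7 (47.1% of all), and 29 at P17 (48.3%), than at P1. A fold of 4 left 13 names (8.64% of all) over the first interval and 0 (2.16%) over the second, where a fold of 1.5 gave 28 lower (27.3%) and 1 higher (22.7%). Equal names taken once gave sums of -1.73 from P1 to P7 and -2.41 from P1 to P17 and 5p shares of all reads of 86.3% at P1 and 88.2% at P17, against 76.9% and 79.1%. Of the settings chosen after seeing the data, nearly equal names taken once gave -0.65, -2.43, 86.4% and 86.9%, and names inside Sfmbt2 alone -0.76 from P7 to P17 and -2.56 from P1 to P17. Among the 48 names and the 3 other scalings, the sign changed for miR-466i-5p from P1 to P17 (0.0199 with median-of-ratios and 0.0208 with TMM factors, against -1.01) and for miR-669a-3p and miR-669o-3p from P7 to P17 (0.0413 and 0.0183, against -0.04). It also changed from P7 to P17 for miR-466d-3p with median-of-ratios factors (0.0191, against -0.05) and for miR-669f-5p with the reduced total. Of 579 further values, for single families, shares and names, 276 kept their size. Depth limits the names under 1 RPM and the ratios of miR-466f and miR-466k at P17. No paired analysis was possible because a single library stands for each age.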
